A study of Mus musculus with 6 samples.

Results

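Serine synthesis and folate-bound one-carbon metabolism were examined in immortalized mouse embryonic fibroblasts (MEFs) through the transcripts of 10 genes. The genes were taken by name from the count table (Phgdh, Psat1, Psph, Shmt1, Shmt2, Mthfd1, Mthfd2, Mthfd1l, Mthfd2l and Aldh1l2). Each was found as a single locus that was not merged with another gene, so that the 10 members made up 10 of the 51499 loci of the table. All 10 also passed the filter on low counts, which kept 13867 loci.

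The cells belonged to 2 genotypes with 3 cultures each. WT MEFs carried loxP-flanked Yme1l alleles (Yme1l fl/fl), and Yme1l-/- MEFs were genotyped as such after Cre recombination. The gene encodes YME1L, an ATP-dependent protease in the inner membrane of mitochondria. As the study describes, both genotypes came from the same kind of floxed primary MEFs. SV40 large T antigen had made these cells immortal, Cre was introduced afterwards, and clones were then picked and typed for the Yme1l alleles. The number of clones behind each genotype is not given in the sources used here, so that effects of a clone and of the genotype cannot be told apart, and the p-values below measure the spread between cultures. Libraries were made from poly(A)-selected RNA with a kit that retains strand.

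Serine is made in the cytosol from the glycolytic intermediate 3-phosphoglycerate by the enzymes PHGDH, PSAT1 and PSPH, in that order. Serine hydroxymethyltransferases (SHMT1 in the cytosol, SHMT2 in mitochondria) then split serine into glycine and a one-carbon unit that is carried on tetrahydrofolate. In mitochondria this unit is oxidized by MTHFD2 or MTHFD2L and released as formate by MTHFD1L, or oxidized to carbon dioxide by ALDH1L2. In the cytosol the trifunctional enzyme MTHFD1 takes up formate again and supplies the folates that purine and thymidylate synthesis use. Several of these genes are known targets of the transcription factor ATF4, which is active in cells with stressed mitochondria.

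The libraries held between 33180867 and 34624075 counted fragments, except for Yme1l-/- replicates 2 and 3 with 49351107 and 49157459. Yme1l1, the symbol of the targeted gene in the tables, fell from 189 ± 5.16 to 39.1 ± 1.34 CPM (counts scaled to a library of 1000000 fragments after TMM, mean ± SD, n = 3), in the direction of the labels. Fragments of the locus were thus still counted in Yme1l-/-, at 0.208 of the WT level. Of 12 fibroblast markers, 10 passed the filter, with 8 lower and 1 (Col1a1) higher in Yme1l-/-. Their summed level lay between 11400 and 12000 CPM in WT and between 7080 and 7580 CPM in Yme1l-/-, with Thy1 and Lum near 0 in both. Markers of macrophages and leukocytes summed to between 4.05 and 4.40 CPM in WT and between 7.10 and 7.44 CPM in Yme1l-/-, with Adgre1 at 0 and with both tested markers, Cd68 and Cd14, called higher. Endothelial markers summed to between 0.888 and 1.44 CPM in WT and between 1.67 and 2 CPM in Yme1l-/-, with the 1 tested marker, Kdr, called higher. Epithelial markers summed to between 32.9 and 34.9 CPM in WT, nearly all of it Krt18, and to at most 0.657 CPM in Yme1l-/-, with both tested markers, Epcam and Krt18, called lower. WT replicate 2 stood apart for Col3a1, with 9860 fragments against 2858 and 2974 in the other WT libraries, for Dcn, with 257 against 52 and 51, and for Lum, with 11 against 2 and 1. Over all tested loci, 33.6% were called higher and 34.1% lower. The part of these marker differences in the results below was not tested.

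The promoters of the members were read first. RefSeq promoters on build GRCm38.p6, which reach from 250 bases before to 50 bases after the start site, were found for 9 of the 10 members, with 2 start sites for Psat1. The member without a promoter was Aldh1l2, which had the largest log2 fold change, so the motif counts below do not cover it. The motifs below were searched on both strands. TGATGNAA, the core of the composite element that ATF4 binds with C/EBP factors, was found for 0 of the 9 members with a promoter. It was found in 3.97% of all 32851 promoters. CACGTG, the E-box that MYC binds, was likewise found for 0 members and in 7.15% of all promoters. TGACNNNGC, the antioxidant response element bound by NRF2, was found for 2 members and in 12.4% of all promoters. A match is a run of letters and not a bound site, and the absence of a match says only that these letters do not occur in this window. The matches of the last motif, in capitals and on the minus strand relative to the gene, lay 53 to 45 bases before the start site of Phgdh and 4 to 12 bases after that of Psph. They are shown with 8 bases on either side.
Phgdh: ccggggagGCGGAGTCAgcagagtt
Psph: gcccagttGCGACGTCAttgcgcat

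For the 3 members that were higher in Yme1l-/- and whose window of 250 bases before a RefSeq start site held no annotated exon, that window is printed 5′ to 3′ on the gene's strand. None of the motifs occurs in these windows, so that no letter is in capitals. The window of Shmt2 lies on the minus strand at chr10:127522445-127522694 and has a GC content of 40.8%. The window of Psat1, also on the minus strand, lies at chr19:15925060-15925309 and has a GC content of 59.6%. It lies within the GENCODE M21 span of the gene (15904678 to 15947337), downstream of the start of that span. The window of Mthfd1l lies on the plus strand at chr10:3972825-3973074, with a GC content of 54.4%.
Shmt2: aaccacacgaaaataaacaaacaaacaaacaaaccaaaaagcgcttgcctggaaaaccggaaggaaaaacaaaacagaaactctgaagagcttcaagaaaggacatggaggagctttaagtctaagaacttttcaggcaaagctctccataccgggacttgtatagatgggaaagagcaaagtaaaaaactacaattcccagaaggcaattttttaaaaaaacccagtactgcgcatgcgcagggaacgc
Psat1: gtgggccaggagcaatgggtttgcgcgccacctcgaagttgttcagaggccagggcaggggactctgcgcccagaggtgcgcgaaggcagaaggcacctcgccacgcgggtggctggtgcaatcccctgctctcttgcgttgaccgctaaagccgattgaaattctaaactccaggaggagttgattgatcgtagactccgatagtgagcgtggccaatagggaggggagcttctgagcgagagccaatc
Mthfd1l: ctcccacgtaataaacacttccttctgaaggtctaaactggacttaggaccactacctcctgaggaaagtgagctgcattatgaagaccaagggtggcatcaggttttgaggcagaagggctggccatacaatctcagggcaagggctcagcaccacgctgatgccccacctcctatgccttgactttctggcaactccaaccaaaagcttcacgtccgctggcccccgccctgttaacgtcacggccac

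Most of the pathway was expressed at a higher level in Yme1l-/- MEFs. Aldh1l2, Psph, Shmt2, Mthfd2, Psat1, Phgdh and Mthfd1l were called higher, Mthfd1 and Mthfd2l were called lower, and Shmt1 was not called. A call is an adjusted p under 0.05 in the quasi-likelihood test of edgeR, adjusted by Benjamini-Hochberg over all loci tested. The 7 higher members (70.0%) are to be read against 33.6% of all tested loci that were called higher, and the 2 lower members (20%) against 34.1% that were called lower. At least 2-fold higher were 3 members, against 9.10% of all loci, and at least 2-fold lower were 0 members, against 8.63% of all loci. The median log2 fold change of the members was 0.47, where that of all loci was -0.00411, and the median absolute change was 0.491 against 0.384. The libraries of the genotypes did not overlap for 10 of 10 members, and for 71.9% of all loci. In 8 members every Yme1l-/- library was above the highest WT library, as was the case in 35.9% of all loci.

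**Figure D1:**
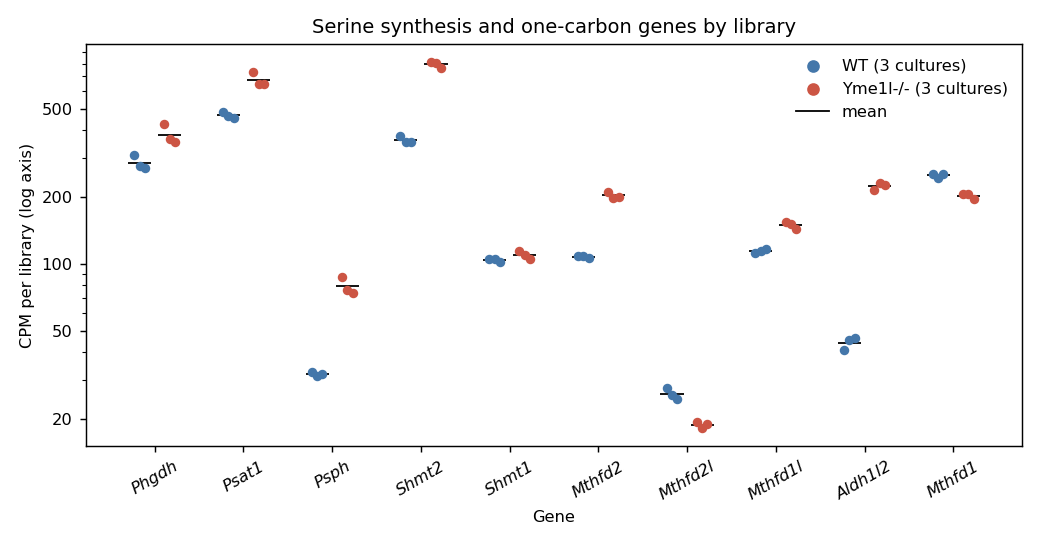
CPM (log axis) of the 10 genes in each of the 3 WT (blue) and 3 Yme1l-/- (red) libraries, one point per library, with the mean as a black line. The points of the genotypes do not overlap for any gene, and the widest gap is that of Aldh1l2, from at most 46.4 CPM in WT to at least 215.7 CPM in Yme1l-/-.

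The 3 enzymes of serine synthesis rose together, by different amounts. Phgdh encodes 3-phosphoglycerate dehydrogenase, the entry enzyme of the pathway (chromosome 3, 98313170 to 98339990, minus strand; this and all further gene positions are those of GENCODE M21 on GRCm38). It had 309, 275 and 272 CPM in the WT libraries (replicates 1 to 3) and 425, 364 and 353 CPM in the Yme1l-/- libraries. Replicate 1 was the highest of its genotype in both, and the gap between the genotypes, from 309 to 353 CPM, was smaller than the range within Yme1l-/-. The fold change was 1.34, or 0.42 ± 0.08 on the log2 scale (SE) at an edgeR adjusted p of 0.000611. Leaving out each culture in turn gave log2 values from 0.333 to 0.476. Of the stretches of 50 bases in annotated Phgdh transcripts, 47.8% also occur in transcripts of other loci, among them the pseudogene Gm7901. That locus held between 3.80% and 5.03% as many fragments as Phgdh and had a log2 fold change of 0.42 ± 0.11 (SE), so the values of both are uncertain to the extent that fragments were exchanged.

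Psat1 encodes phosphoserine aminotransferase (chromosome 19, 15904678 to 15947337, minus strand). Its level was 485, 466 and 457 CPM in WT and 732, 649.7 and 645 CPM in Yme1l-/-, so that replicate 1 was again the highest of both genotypes. The increase was 1.44-fold, with a log2 fold change of 0.53 ± 0.06 (SE) at an edgeR adjusted p of 1.03e-05.

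Psph, which encodes the phosphatase of the last step (chromosome 5, 129765558 to 129787449, minus strand), was the least abundant of the 3 and had the largest relative increase. The WT libraries had 32.5, 31.3 and 32 CPM and the Yme1l-/- libraries 87.8, 76.0 and 73.9 CPM. The coefficient of variation of the WT cultures was 1.79%, and the lowest Yme1l-/- library was more than 40 CPM above the highest WT library. The fold change was 2.48, with a log2 value of 1.31 ± 0.07 (SE) at an edgeR adjusted p of 1.82e-08. Psph overlaps Cct6a, a chaperonin subunit gene on the opposite strand that held between 987% and 2780% as many fragments. Whether the counting used strand is not given in the sources used here, so that for Psph, and likewise for Shmt1 and Aldh1l2 and the genes they overlap, fragments of the shared stretch cannot be told apart by strand with certainty. Cct6a was not called, with a log2 fold change of -0.04 ± 0.05 (SE).

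The mitochondrial serine hydroxymethyltransferase Shmt2 rose, and its cytosolic counterpart Shmt1 was not called. Shmt2 (chromosome 10, 127517123 to 127522444, minus strand) had 378, 353 and 353 CPM in WT and 811, 803 and 768 CPM in Yme1l-/-. This was a 2.2-fold increase, with a log2 fold change of 1.14 ± 0.05 (SE) at an edgeR adjusted p of 5.74e-09. Shmt1 (chromosome 11, 60788104 to 60811718, minus strand) had 105.3, 104.8 and 101.8 CPM in WT and 114, 109.95 and 105.8 CPM in Yme1l-/-. The Yme1l-/- libraries lay above those of WT, the closest of them by less than 1 CPM, and the log2 fold change was 0.08 with a 95% confidence interval from -0.02 to 0.18 and an edgeR adjusted p of 0.147. Shmt1 passed the threshold under upper-quartile scaling, at 0.139 on the log2 scale (edgeR adjusted p of 0.0189), and was called lower, at -0.277 (edgeR adjusted p of 0.000299), with the median change of each chromosome removed. Shmt1 overlaps Smcr8 on the opposite strand, which was called higher, at 0.27 ± 0.06 (SE).

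Among the folate enzymes the largest change of the pathway was that of Aldh1l2, the mitochondrial 10-formyltetrahydrofolate dehydrogenase (chromosome 10, 83487450 to 83534140, minus strand). Its 40.7, 45.5 and 46.4 CPM in WT became 216, 232 and 226 CPM in Yme1l-/-. The 5.08-fold increase corresponded to a log2 fold change of 2.35 ± 0.06 (SE) at an edgeR adjusted p of 8.77e-11, and 2.88% of all tested loci had a higher log2 fold change. It overlaps D10Wsu102e on the opposite strand, which held between 84.9% and 437% as many fragments and had a log2 fold change of 0.12 ± 0.04 (SE).

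Mthfd2 and Mthfd2l encode paralogous mitochondrial methylenetetrahydrofolate dehydrogenases, and they moved in opposite directions. Mthfd2 (chromosome 6, 83305691 to 83325908, minus strand) had 109, 108 and 106 CPM in WT and 211, 199 and 201 CPM in Yme1l-/-. It was 1.89-fold higher, with a log2 fold change of 0.92 ± 0.04 (SE) at an edgeR adjusted p of 8.71e-09. Mthfd2l (chromosome 5, 90931117 to 91021368, plus strand) was the least abundant member, with 27.6, 25.5 and 24.5 CPM in WT and 19.4, 18.2 and 19 CPM in Yme1l-/-. Every Yme1l-/- library lay more than 5 CPM below the lowest WT library, and the log2 fold change was -0.46 ± 0.06 (SE) at an edgeR adjusted p of 7.37e-05. No stretch of 50 bases was shared between transcripts of any members, so that these paralogues could not exchange fragments through identical sequence of that length.

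Mthfd1l, the mitochondrial formyltetrahydrofolate synthetase (chromosome 10, 3973118 to 4167081, plus strand), had 112, 114 and 117 CPM in WT and 155, 152 and 144 CPM in Yme1l-/-. The log2 fold change was 0.40 ± 0.05 (SE) at an edgeR adjusted p of 1.43e-05. The cytosolic Mthfd1 (chromosome 12, 76255298 to 76319803, plus strand) went the other way, from 255, 244 and 254 CPM to 207, 207 and 196 CPM. Once chromosome medians were removed, Mthfd1 was instead called higher (0.135) and Mthfd1l was not called (0.1). The reported log2 fold change of Mthfd1 was -0.30 ± 0.04 (SE) at an edgeR adjusted p of 7.15e-05. By compartment, 4 of the 5 mitochondrial members were higher and 1 was lower, and of the 5 cytosolic members 3 (those of serine synthesis) were higher and 1 was lower, where 33.6% of all loci were higher and 34.1% lower. With chromosome medians removed, 3 mitochondrial and 4 cytosolic members were higher and 1 of each was lower, where 31.1% of all loci were higher and 31.7% lower.

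Levels of different genes were compared per length, as CPM per kb of annotated exon. In WT, Shmt2 (116 ± 4.55), Phgdh (115 ± 8.20) and Psat1 (110.3 ± 3.41 CPM per kb, SD, n = 3) formed the top of the order and did not differ beyond their spread. Mthfd1 followed with 56.5 ± 1.37, then Mthfd2 with 30.9 ± 0.403, and Shmt1 and Mthfd1l with overlapping values near 26 CPM per kb. Psph, Aldh1l2 and Mthfd2l were lowest, at 7.38 ± 0.132, 5.89 ± 0.407 and 3.89 ± 0.231 CPM per kb, and each stood apart from the next.

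The order in Yme1l-/- was different. Shmt2 alone led with 255 ± 7.47 CPM per kb, above Psat1 (159 ± 11.5) and Phgdh (153 ± 15.6), which overlapped. Mthfd2 (58.4 ± 1.88) stood above Mthfd1 (45.8 ± 1.49 CPM per kb), the reverse of their order in WT. Aldh1l2 went from the ninth place to the seventh, at 29.9 ± 1.11 CPM per kb, past Shmt1 at 28.3 ± 1.06, with libraries of the pair that overlapped. In the authors' FPKM values, which rest on assembled transcripts and give 1 combined value per genotype, Shmt2 was likewise first in Yme1l-/- (405 FPKM), but Psat1 was first in WT (207 FPKM). In WT, Aldh1l2 (7.72 FPKM) lay below Mthfd2l (17.97 FPKM), the reverse of their order per kb. In Yme1l-/- FPKM, Psph (59.9) lay above Shmt1 (49.9), and Aldh1l2 (39.4) below Shmt1, both again the reverse of the order per kb. The order of the first 3 members in WT, and of members below the first 5 in both genotypes, thus differed between the measures.

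**Figure D2:**
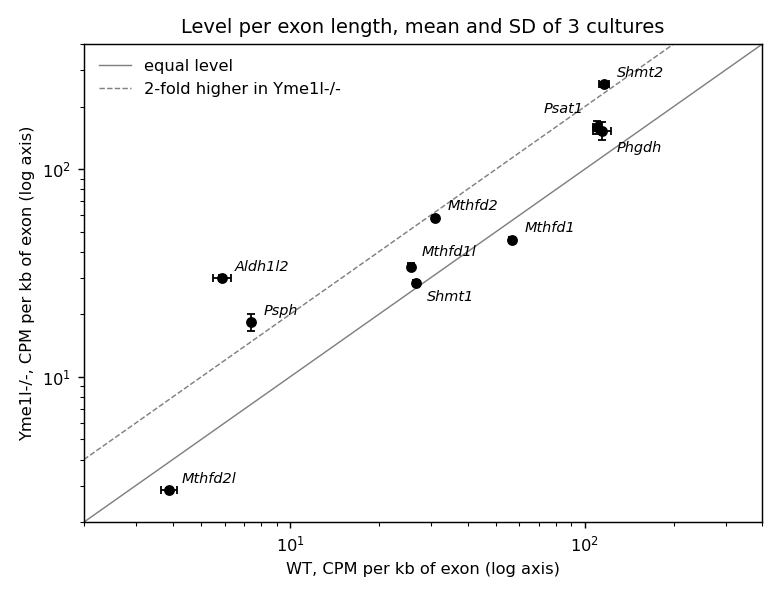
Level per exon length in WT (x axis) and in Yme1l-/- (y axis), both as CPM per kb on log axes, with the mean and SD of 3 cultures. The solid line marks equal levels and the dashed line a 2-fold higher level in Yme1l-/-. Aldh1l2, Psph and Shmt2 lie above the dashed line, and Mthfd1 and Mthfd2l below the solid line.

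The changes were then set beside those of the chromosomes, because the median log2 fold change was not 0 for every chromosome. The members on chromosome 10 (Shmt2, Mthfd1l and Aldh1l2) had a chromosomal median log2 fold change of 0.30 behind them, Shmt1 on chromosome 11 one of 0.36, and Mthfd2 on chromosome 6 one of 0.34. Mthfd1 on chromosome 12 lay on a background of -0.44. The medians were near 0 for chromosome 5 (Psph and Mthfd2l, 0.01) and at 0.12 and -0.12 for the chromosomes of Psat1 and Phgdh.

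With these medians removed, 7 members were still called higher and 2 lower, against 31.1% of all loci higher and 31.7% lower in that fit, but they were not all the same genes. The calls of Aldh1l2 (2.05), Psph (1.29), Shmt2 (0.839), Mthfd2 (0.575), Phgdh (0.539) and Psat1 (0.410) and the lower call of Mthfd2l (-0.470) were shared between the fits, 6 higher and 1 lower. Mthfd1 changed sign and was called higher, with an edgeR adjusted p of 0.0174, and Shmt1 was called lower. Mthfd1l, at 0.1, was no longer called (edgeR adjusted p of 0.0786).

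The nearest tested loci gave a closer view of the same background. Of the 20 loci around Aldh1l2, over 2.39 Mb, 0 reached its log2 fold change, and their median was 0.18. Around Psph, 0 of 20 neighbours reached the value of the gene, with a median of -0.05. Shmt2 was exceeded by 3 of its 20 neighbours, whose median was 0.36 and of which 12 were called higher. Mthfd2 was exceeded by 6 of 20, with a median of 0.51 and with 16 of them called higher. For Mthfd1 the neighbours had a median of -0.42, and 11 of 20 had a lower value than the gene, while 19 of the 20 neighbours of Shmt1 had a higher value than Shmt1. Mthfd1l had 11 neighbours, since it lies near the end of its chromosome, with a median of 0.10, and 4 of them exceeded it. Phgdh was exceeded by 4 and Psat1 by 5 of 20 neighbours, and 5 of the 20 neighbours of Mthfd2l had a lower value than Mthfd2l.

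**Figure D3:**
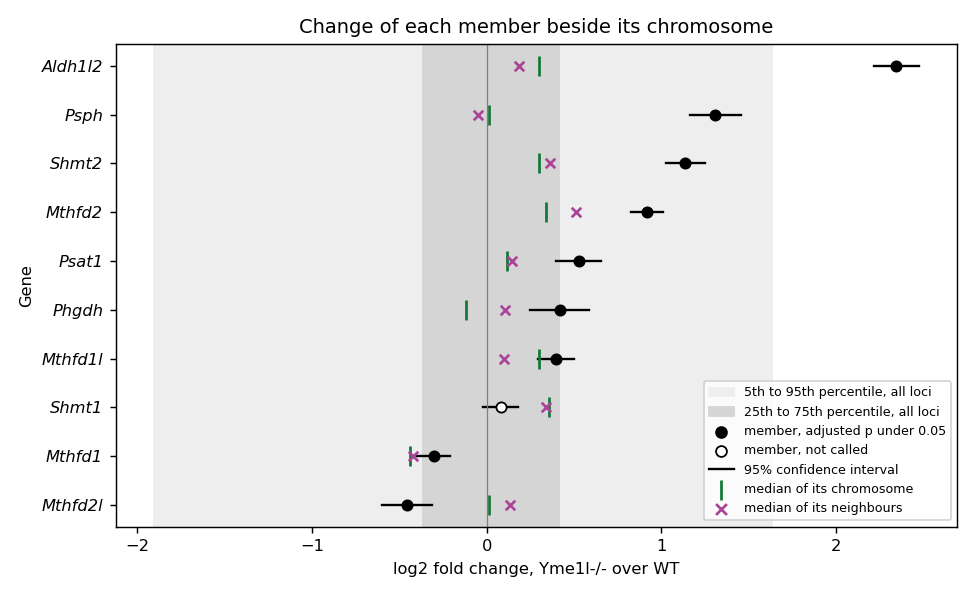
Log2 fold change of each member (Yme1l-/- over WT, x axis) with its 95% confidence interval. Filled points passed the test, and the open point (Shmt1) did not. Grey bands give the percentiles of all 13867 loci, green bars the median of the member's chromosome and purple crosses the median of its neighbours. Aldh1l2 lies beyond the 95th percentile, and Mthfd1, Mthfd1l and Shmt1 lie within 0.3 of the median of their chromosomes.

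The balance within pairs of paralogues was followed in each library as a log2 ratio of fragment counts, in which library scaling cancels. A change of such a ratio between genotypes does not depend on gene length. For Shmt2 to Shmt1 the log2 ratio was 1.84, 1.75 and 1.80 in WT and 2.83, 2.87 and 2.86 in Yme1l-/-, a difference of 1.06 that moved the pair 2.08-fold towards the mitochondrial enzyme. For Mthfd2 to Mthfd2l it was 1.98, 2.08 and 2.11 in WT and 3.45, 3.45 and 3.40 in Yme1l-/-, a difference of 1.37, or 2.59-fold. For Mthfd1l to Mthfd1 it was -1.19, -1.10 and -1.12 in WT and -0.42, -0.45 and -0.44 in Yme1l-/-, a difference of 0.70, or 1.62-fold. In each of the 3 pairs the libraries of the genotypes did not overlap, and the exact permutation test (two-sided) gave a p of 0.1 before and thus also after adjustment over the pairs, the smallest that 3 against 3 cultures can give. With chromosome medians removed, the differences were 1.12 for Shmt2 to Shmt1 and 1.04 for Mthfd2 to Mthfd2l, whereas that of Mthfd1l to Mthfd1 was -0.0351.

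**Figure D4:**
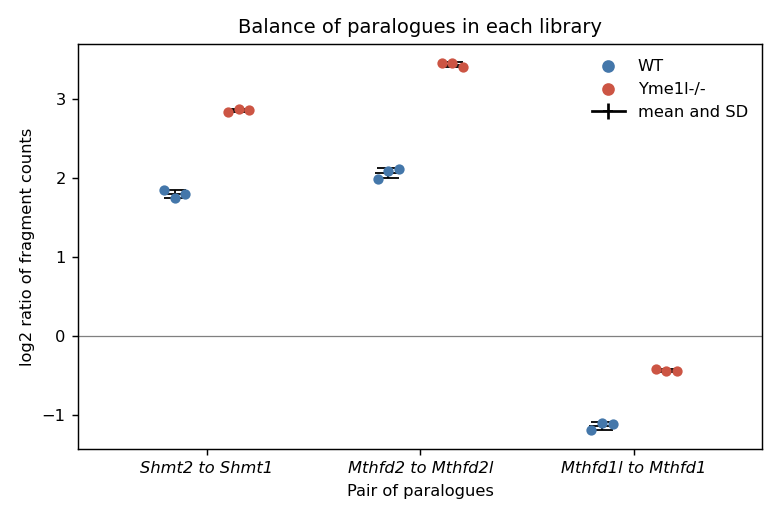
Log2 ratio of fragment counts (y axis) for 3 pairs of paralogues in each WT (blue) and Yme1l-/- (red) library, with mean and SD as black bars. All 3 ratios are higher in every Yme1l-/- library, and the SD lies between 0.01 and 0.07.

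Further lists placed the members in the wider pathway. Of 20 genes for the supply and use of serine and glycine, 18 passed the filter, with 8 higher and 5 lower (72.2% called, against 67.7% of all loci), with a median log2 fold change of 0.13. Cth, which encodes cystathionine gamma-lyase at the end of the route from serine to cysteine, rose from 8.57 ± 0.421 to 26.9 ± 1.66 CPM (SD, n = 3). Its log2 fold change was 1.65 ± 0.07 (SE), whereas that of Cbs, the enzyme of the preceding step, was -0.91 ± 0.24 (SE), at levels of 1.3 CPM in WT and 0.687 CPM in Yme1l-/-. Slc6a9, a glycine transporter gene, was at 1.12 ± 0.07 and Srr, the serine racemase gene, at 1.09 ± 0.08 (log2 fold change ± SE). Gcsh and Dld, components of the glycine cleavage system, were called lower, at -0.59 ± 0.06 and -0.41 ± 0.05 (SE), Amt was not called, at -0.17 ± 0.16 (SE), and Gldc of the same system was near 0 in both genotypes and not tested. With chromosome medians removed, Dld was at 0.029 and not called, and Gcsh was at -0.277 and still called. In that fit Srr was at 0.736, Cth at 1.77 and Slc6a9 at 1.22, all still called.

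The folate list held 20 genes for uptake, storage and use of folates, of which 14 were tested, 5 were higher and 6 were lower (78.6% called, against 67.7% of all loci), with a median of 0.01. Sardh, the mitochondrial sarcosine dehydrogenase, which also feeds one-carbon units into folate, rose from 31.6 ± 2.67 to 95.8 ± 2.61 CPM (SD, n = 3), which is 1.60 ± 0.06 (SE) on the log2 scale. Tyms, whose product thymidylate synthase uses methylene-tetrahydrofolate, was at -0.04 ± 0.06 (SE), with a 95% confidence interval from -0.18 to 0.09, and of 13 alternatives it was called lower in 1, without Yme1l-/- replicate 1 (-0.115, edgeR adjusted p of 0.0346). The folate carriers Slc46a1 (0.91 ± 0.09) and Slc19a1 (0.52 ± 0.07, log2 fold change ± SE) were higher, and Ggh, a hydrolase of folate polyglutamates, was lower (-0.91 ± 0.09, SE). With chromosome medians removed, Slc46a1 was at 0.553 and Slc19a1 at 0.227, both still called. Gart and Atic, which use 10-formyltetrahydrofolate in purine synthesis, were at -0.33 ± 0.05 and -0.13 ± 0.04 (SE), and the Atic call was lost in 5 of 13 alternatives, namely upper-quartile scaling, chromosome medians removed and leaving out WT replicate 1 or Yme1l-/- replicate 2 or 3 (edgeR adjusted p between 0.0524 and 0.649). The lowest value, -1.42 ± 0.27 (SE), was that of Mthfs, which was counted as 1 locus with Bcl2a1b and Gm29094 and had at most 41 fragments, so that the value cannot be divided among these genes. The mitochondrial folate carrier Slc25a32 was listed at 0 in every library and was not tested. Whether this 0 reflects absent transcripts or the assignment of fragments to loci in the table was not tested.

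Of 12 methionine cycle genes, 8 were tested, 2 were higher and 2 were lower (50% called, against 67.7% of all loci), with a median of -0.03. Under upper-quartile scaling, where 67.6% of all loci were called, and with chromosome medians removed, where 62.8% were, 6 of the 8 were called. Nnmt, a methyltransferase gene that uses S-adenosylmethionine, had 3, 8 and 2 fragments in WT and 138, 212 and 227 in Yme1l-/-, which gave a log2 fold change of 4.96 ± 0.29 (SE). Without WT replicate 2, which held most of the WT fragments, it was 5.73, and it was 4.63 without WT replicate 3. Mat2b, a regulatory subunit of methionine adenosyltransferase, was at 0.69 ± 0.06 (SE), and at 0.334 with chromosome medians removed. The catalytic subunit gene Mat2a had the lowest value, -0.41 ± 1.27 (SE), and varied between 50 and 513 fragments within WT alone, so that no difference was detectable. Ahcy varied in a similar way, with 223 to 364 CPM in WT and 192 to 303 CPM in Yme1l-/-. Whether the spread of Mat2a and Ahcy reflects transcript levels or the assignment of fragments to loci was not tested.

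The regulator list held 10 transcription factors and cofactors linked to the pathway or to ATF4. Of these, 9 were tested, 6 were higher and 1 was lower (77.8% called, against 67.7% of all loci, and 66.7% higher against 33.6%), with a median of 0.45. One of the higher calls, that of Cebpg (0.12 ± 0.04, SE), which encodes a partner of ATF4, was lost in 6 of 13 alternatives. Atf4 itself had 275, 272 and 262 CPM in WT and 565, 533 and 512 CPM in Yme1l-/-, a log2 fold change of 0.99 ± 0.05 (SE). It lies on chromosome 15, whose median was 0.59, and was at 0.400 and still called with chromosome medians removed. Atf5, a related factor, rose from 47.8 ± 2.62 to 105.3 ± 5.88 CPM (SD, n = 3), which is 1.14 ± 0.06 (SE) on the log2 scale. Ddit3 (1.97 ± 0.07) and Trib3 (2.51 ± 0.07, log2 fold change ± SE), both known ATF4 targets, were the other regulators with at least 2-fold higher levels. Myc was at -0.17 ± 0.06 (SE), and its call was lost in 5 of 13 alternatives, namely upper-quartile scaling and leaving out WT replicate 1 or 2 or Yme1l-/- replicate 2 or 3 (edgeR adjusted p up to 0.164). Myc was at -0.761 with chromosome medians removed. Nfe2l2, which encodes NRF2, was not called, at -0.02 ± 0.06 (SE), and its sign changed under upper-quartile scaling.

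**Figure D5:**
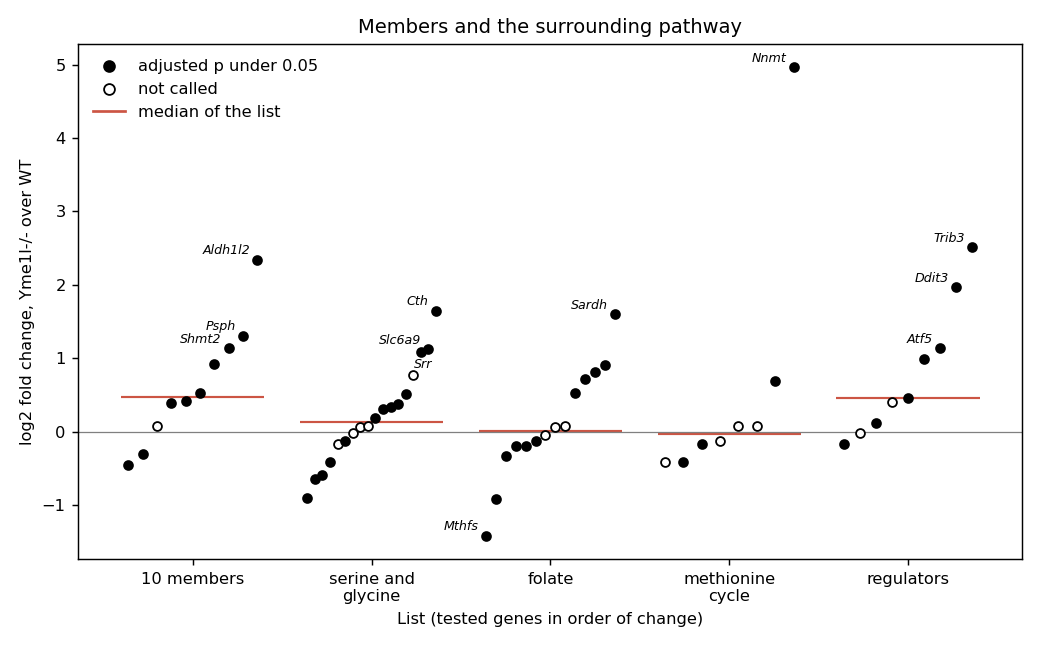
Log2 fold change (Yme1l-/- over WT, y axis) of the tested genes of each list, ordered by value within the list, with red lines at the list medians. Filled points passed the test, and names are given for called genes with at least 2-fold change. The medians are 0.471 for the members and 0.453 for the regulators, and lie between -0.0256 and 0.133 for the other lists.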

How the data were processed

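RNA-seq of 3 WT and 3 Yme1l-/- cultures was used. The authors mapped read pairs with HISAT2 2.0.4 to mm10 (GRCm38), assembled transcripts with StringTie 1.3.3 and compared genotypes with Cuffdiff 2.2.1. Raw fragment counts per assembled locus stand in a table that the authors deposited. How multi-mapping fragments were treated is not given in the sources used here. A second table holds FPKM values, 1 combined value per genotype computed by the authors, and columns of the authors' own comparison (fold changes, test statistics and p-values), which were not used. Locus positions, used for chromosome medians and neighbours, came from it. For members whose gene overlaps another on the opposite strand its positions span both genes, so GENCODE M21 positions are printed.

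The tests were run in edgeR 4.0.16 under R 4.3.3 (filterByExpr with a minimum count of 10, TMM scaling, robust glmQLFit and glmQLFTest, two-sided, no covariates). Each SE is the size of the log2 fold change divided by the root of its F statistic. In simulated data, changes of 1 on the log2 scale were recovered for 90.7% of 97 loci and changes of 2 for 99.0% of 101. Only these of 13683 simulated loci were changed, without shifts of whole chromosomes, whereas 67.7% of loci were called in the data. Smaller changes, such as those of several members, were not simulated. Ratios used a prior count of 0.5. Neighbours were the 10 tested loci on each side. Sequences came from RefSeq and GENCODE. The members and lists were chosen with earlier results of these data known. Named were all members, Yme1l1 and, in the lists, called genes with at least 2-fold change, the highest and lowest values and Tyms, and some items are not reported here. Other genes were chosen after their values were seen. Alternatives were RLE and upper-quartile scaling, DESeq2 1.42.0, other filters, a replicate block, removal of chromosome medians and leaving out each culture.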

Additional observations from a re-analysis of the deposited data

How the results depend on the processing

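Over 13 alternatives the number of members called higher was 7 or 8, the number called lower was 2, and the member median lay between 0.421 and 0.531. The Yme1l1 value lay between -2.29 and -2.21, and 8513 to 10051 loci were called in all. The list counts ranged from 11 to 15 (serine and glycine), 9 to 11 (folate), 3 to 6 (methionine cycle) and 5 to 8 (regulators). Of the genes counted in the lists, Mtfmt lost its call in 9 alternatives, Glyctk in 7, Cebpg in 6 and Sfxn3, Myc and Atic in 5 each. Nnmt was not tested where 10 counts were required in every library. With chromosome medians removed, the Mthfd1l to Mthfd1 difference was -0.0351, and the log2 fold changes of Shmt1 (-0.277), Mthfd1 (0.135), Amt (0.189), Dld (0.029), Mtr (-0.0076), Mtfmt (0.171), Atic (0.0239) and Ahcyl2 (-0.257) changed sign, by construction of that alternative. Under upper-quartile scaling Ptdss1 (0.0357), Tyms (0.0163) and Nfe2l2 (0.0358) changed sign, each not called. When each of the 6 cultures was left out in turn, Mat2a ranged from -2.14 to 0.493, Ahcy from -0.275 to 0.122, Nfe2l2 from -0.0667 to 0.0512 and Tyms from -0.115 to 0.0116, and Nnmt from 4.63 to 5.73.

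Across loci, cultures that share a number deviated from the mean of their genotype with correlations of 0.144, -0.0939 and 0.048. The reported fit did not pair samples by replicate number. These correlations do not describe the members. Replicate 1 was the highest library of both genotypes for Phgdh, Psat1, Psph, Shmt1, Shmt2, Mthfd1, Mthfd2 and Mthfd2l. For Aldh1l2 it was the lowest of both. A fit with a replicate block called 9794 loci, with 7 members higher and 2 lower. Its edgeR adjusted p was 2.49e-07 for Phgdh and 1.12e-07 for Psat1, against 0.000611 and 1.03e-05 without the block. Low counts limit Cbs, Mthfs and Nnmt, and PCR copies cannot be told from separate molecules in these counts.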
